A study of Mus musculus with 28 samples.

Results

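A set of 9 genes through which regulatory T cells (Treg cells) restrain other cells by secretion was followed in RNA of sorted mouse Treg cells. They are Il10, Ebi3, Tgfb1, Lrrc32, Itgb8, Fgl2, Gzmb, Prf1 and Areg, chosen by name as secreted suppressors, TGF-beta activators and granule proteins, and all 9 were found among the 43430 gene IDs of each count table. The study asked what loss or inhibition of the mitochondrial electron transport chain does to Treg cells, which were sorted as CD4+ CD25+ cells carrying YFP with Foxp3, from C57BL/6NJ mice. RISP_KO Treg cells (n = 4 libraries) came from mice aged 3 weeks that lack the Rieske iron-sulfur protein of complex III, encoded by Uqcrfs1, and RISP_WT Treg cells (n = 4) from wild-type mice of the same age. RISP_Chimera_KO (n = 4) and RISP_Chimera_WT (n = 4) are the same genotypes in chimeras aged 8 to 12 weeks. In vitro, RISP WT Treg cells of mice aged 3 weeks received piericidin at 1 µM, 3-NPA at 500 µM or antimycin A at 1 µM, or stayed untreated (n = 3 libraries each). The deletion acts in cells that express Foxp3, so other cells of these mice keep the gene.

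Treg cells suppress by several secreted routes. IL-10 is an anti-inflammatory cytokine, and EBI3 is the chain that pairs with the product of Il12a to form IL-35. TGF-beta 1 is made in a latent form that is tethered to the Treg surface by GARP, the product of Lrrc32, and is released in active form by the integrin alpha-v beta-8, whose beta chain Itgb8 encodes. FGL2 is a secreted fibrinogen-like protein that binds inhibitory Fc receptors on antigen-presenting cells, granzyme B and perforin kill target cells by the granule route, and amphiregulin is an EGF family ligand that promotes tissue repair.

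Libraries held 28.4 to 50.8 M counts from 3-week-old mice, 20.4 to 31.0 M from chimeras and 2.71 to 3.45 M in vitro. The labels assign the SMART-Seq v4 kit to the first set and the NEBNext kit to the other two, so levels are set side by side across the sets as a description only. CPM below are counts scaled to the library size after TMM normalisation. Uqcrfs1 was at 6.14 ± 0.922 CPM in RISP_KO against 175 ± 17.4 CPM in RISP_WT, and at 6.75 ± 3.07 CPM in RISP_Chimera_KO against 81.6 ± 6.37 CPM in RISP_Chimera_WT (SD, n = 4 each). The summed level of 7 Treg markers ran from 3305 to 4178 CPM over the 16 knockout and wild-type libraries and from 6495 to 7384 CPM in vitro. The labels do not say that the libraries of a group come from separate mice, so p-values reflect how far these libraries differ, which can be technical. In bulk RNA, fewer cells of a type and less RNA per cell cannot be told apart.

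Length-scaled levels put the TGF-beta docking protein at the top. In RISP_WT the mean level, in CPM per kb of gene length (SD, n = 4), was 124 ± 29.5 for Lrrc32, 36.2 ± 3.72 for Tgfb1, 35.8 ± 8.49 for Gzmb, 28.6 ± 2.63 for Ebi3 and 17.1 ± 4.66 for Fgl2. The low end held Il10 at 4.05 ± 2.01, Prf1 at 3.08 ± 0.447, Itgb8 at 1.54 ± 0.284 and Areg at 1.19 ± 0.583 CPM per kb. Tgfb1 and Gzmb, Gzmb and Ebi3, Il10 and Prf1, and Itgb8 and Areg are neighbours in this order that differ by less than the larger of their SDs. In RISP_Chimera_WT the order of CPM per kb was Lrrc32 at 85.5 ± 5.56, Tgfb1 at 62.1 ± 4.25, Ebi3 at 5.52 ± 1.16, Fgl2 at 4.13 ± 1.82, Il10 at 3.65 ± 1.41, Prf1 at 3.55 ± 0.850, Areg at 2.77 ± 2.11, Itgb8 at 2.35 ± 0.483 and Gzmb at 1.24 ± 0.643, and from Ebi3 down to Itgb8 each gene differs from the next by less than the larger of their SDs. Untreated cultured cells had Lrrc32 at 185 ± 10.7, Tgfb1 at 102 ± 9.61, Il10 at 27.0 ± 3.85, Gzmb at 24.3 ± 9.31, Ebi3 at 20.4 ± 5.65, Fgl2 at 11.3 ± 3.46, Itgb8 at 6.14 ± 0.253, Areg at 2.39 ± 1.66 and Prf1 at 0.266 ± 0.326 CPM per kb (SD, n = 3), where Il10 and Gzmb, and Gzmb and Ebi3, differ by less than the larger SD. Gzmb therefore sits near the top in 3-week-old mice and at the bottom in chimeras, and Il10 ranks high in culture and lower in both mouse sets.

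**Figure D1:**
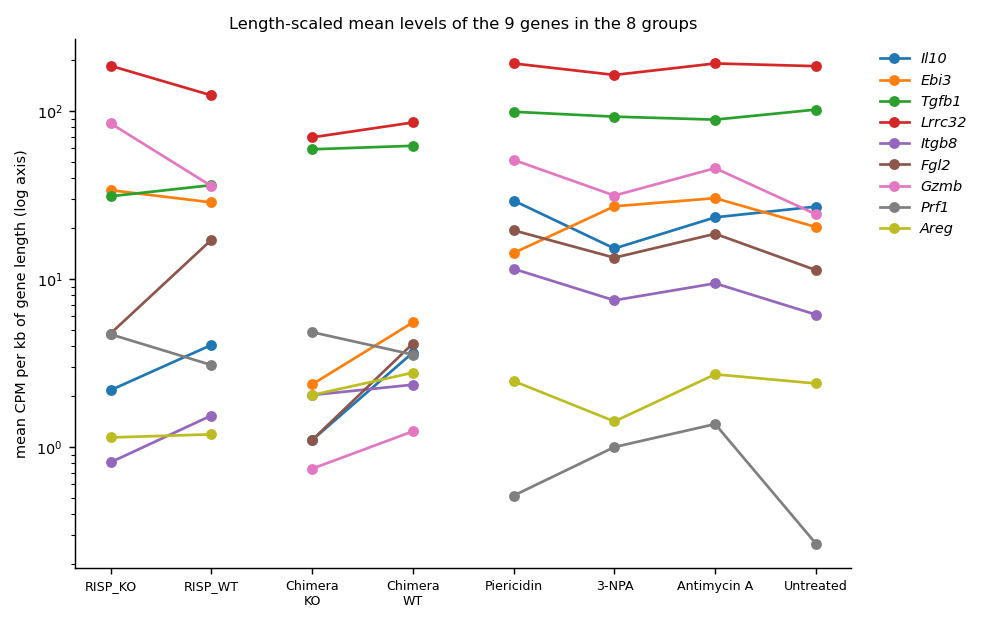
Mean level of the 9 genes, in CPM per kb of gene length on a log axis, in each of the 8 groups (1 line per gene, broken between the 3 count tables). Lrrc32 is highest and Tgfb1 close to the top in all 8 groups except that Gzmb and Ebi3 reach or pass Tgfb1 in RISP_KO, and Gzmb spans 0.743 in RISP_Chimera_KO to 84.5 in RISP_KO.

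In 3-week-old mice the loss of complex III left a mixed picture: Fgl2 was lower, Lrrc32 higher, and the other 7 genes were not called. Calls use edgeR's quasi-likelihood test with Benjamini-Hochberg adjustment over all tested genes, at an adjusted p under 0.05. Of the 9 genes, 1 rose and 1 fell, while 9.86% of the 13832 genes tested in this comparison were called (4.78% higher and 5.08% lower). The CPM of RISP_KO and RISP_WT did not overlap for 3 of the 9 (Lrrc32, Itgb8 and Fgl2), against 17.4% of all tested genes. The median log2 fold change was -0.06 over the 9 and 0.00 over all tested genes. In chimeras Fgl2 alone of the 9 was called, and it was lower. There 0.708% of the 14399 tested genes were called, 0.542% as lower, and the CPM did not overlap for 3 of the 9 (Ebi3, Lrrc32 and Fgl2) against 7.50% of all, with a median log2 fold change of -0.46 for the 9 and 0.00 for all.

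In culture, piericidin and antimycin A raised the same 3 genes, Itgb8, Fgl2 and Gzmb, and 3-NPA lowered Il10. Piericidin blocks complex I, 3-NPA complex II and antimycin A complex III. With piericidin 3 of the 8 tested genes rose and 0 fell, against 13.6% of 11689 genes called and 5.62% called as higher. With antimycin A 3 rose and 0 fell, against 15.0% called and 6.50% called as higher. With 3-NPA 0 rose and 1 fell, against 3.23% called and 1.87% called as lower. Groups did not overlap for 2 of 8 with piericidin (28.9% of all genes), 3 of 8 with 3-NPA (20.8%) and 2 of 8 with antimycin A (31.0%). The median log2 fold change of the 8 was 0.09 with piericidin, 0.05 with 3-NPA and 0.37 with antimycin A, and that of all tested genes 0.01, -0.01 and 0.02. The 3 comparisons share the Untreated libraries, so they are not independent of each other. Prf1 did not pass the filter on low counts in culture and was not tested there.

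**Figure D2:**
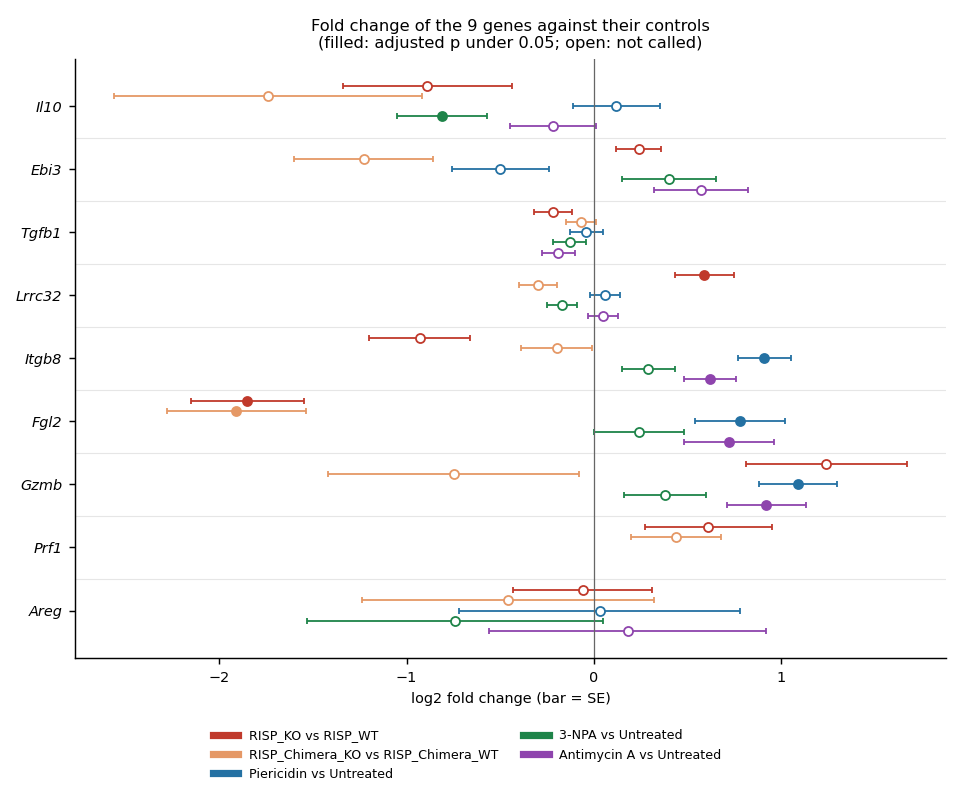
Log2 fold change of each gene against its control in the 5 comparisons (point, with its SE as a bar; filled points passed an adjusted p of 0.05). Fgl2 lies left of 0 in the knockouts and right of 0 with the inhibitors, and the remaining filled points are Lrrc32 in RISP_KO, Il10 with 3-NPA, and Itgb8 and Gzmb with piericidin and antimycin A.

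Among the cytokines, Il10 (chromosome 1, 131019845 to 131024974, plus strand, mm10) was low in all mouse-derived groups and not called in either knockout. It read 1.01, 3.24, 4.94 and 2.26 CPM in RISP_KO libraries 1 to 4, against 9.14, 4.91, 3.75 and 3.41 CPM in RISP_WT libraries 1 to 4. RISP_WT library 1 was the highest and RISP_KO library 1 the lowest, and the other 6 libraries overlap (log2 fold change -0.89 ± 0.45, SE; adjusted p = 0.249, edgeR). RISP_Chimera_KO libraries read 0, 4.14, 0.347 and 1.29 CPM, against 4.83, 2.20, 6.51 and 5.56 CPM in RISP_Chimera_WT (-1.74 ± 0.82, adjusted p = 0.396). The count of 0 in RISP_Chimera_KO library 1 allows a level of up to 0.0996 CPM (3 counts), a limit that covers counting error only. RISP_Chimera_KO libraries 2 and 4, which hold the higher Il10 values, also had the higher sums of 9 macrophage and monocyte markers, at 68.0 and 78.7 CPM against 26.2 and 25.7 CPM in libraries 1 and 3. In RISP_Chimera_WT those sums were 53.5, 21.7, 24.2 and 40.0 CPM. RISP_Chimera_KO library 2 also had the highest Uqcrfs1 of its group, at 11.3 CPM against 4.88, 4.83 and 6.00 CPM in libraries 1, 3 and 4. A fit without libraries 2 and 4 leaves the 2 knockout libraries with 0 and 10 counts of Il10, so that its call (adjusted p = 0.0107) follows from which libraries were left out. The part of the marker genes, or of the remaining Uqcrfs1, in the level of Il10 was not tested.

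Cultured cells held more Il10. It read 34.9, 32.6 and 47.6 CPM with piericidin, 13.0, 20.2 and 26.7 CPM with 3-NPA, 30.4, 27.4 and 33.7 CPM with antimycin A, and 31.1, 34.3 and 40.9 CPM in untreated libraries 1 to 3. All 3 libraries with 3-NPA lay below all 9 others, of which antimycin A library 2 was the nearest. Il10 fell by 0.81 ± 0.24 on the log2 scale with 3-NPA (adjusted p = 0.0490), a 1.76-fold lower level, and was not called with piericidin (0.12 ± 0.23, adjusted p = 0.799) or antimycin A (-0.22 ± 0.23, adjusted p = 0.605). The call with 3-NPA was lost when any of 5 of the 6 libraries was left out, all but 3-NPA library 3, with an adjusted p of up to 0.240.

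Ebi3 (chromosome 17, 55952623 to 55957021, plus strand, mm10) had log2 fold changes of opposite sign in the 2 knockouts, and neither passed the test. It read 46.8, 38.1, 39.7 and 33.5 CPM in RISP_KO, against 30.7, 35.9, 31.0 and 36.3 CPM in RISP_WT (0.24 ± 0.12, adjusted p = 0.255). RISP_Chimera_KO libraries read 1.19, 3.42, 1.70 and 4.75 CPM, against 4.78, 6.17, 6.88 and 8.03 CPM in RISP_Chimera_WT (-1.23 ± 0.37, adjusted p = 0.172). Every RISP_Chimera_KO library lies below every RISP_Chimera_WT library, though the highest of one and the lowest of the other differ little. Ebi3 was called lower there by DESeq2 (-1.22, adjusted p = 0.0265). Libraries 2 and 4 of the knockout also have its highest Ebi3, so the call without them (adjusted p = 0.00557) follows from leaving them out. The knockout effect in chimeras minus that in 3-week-old mice was -1.49 ± 0.38 on the log2 scale (adjusted p = 0.0393, edgeR, 1 fit of 16 libraries). In that comparison 2 of the 9 genes were called, against 3.27% of 15580 genes. Uqcrfs1 itself was 28.4-fold lower in RISP_KO and 12.1-fold lower in RISP_Chimera_KO, a called difference of 1.20 ± 0.27 in the same fit (adjusted p = 0.0191, edgeR). Age, host, library kit and the size of the Uqcrfs1 loss all differ between the 2 sets and cannot be told apart. For Ebi3, 12 of the 16 fits without 1 library lost the call (adjusted p up to 0.103).

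In culture Ebi3 set piericidin apart from the other inhibitors. It read 13.2, 14.5 and 22.6 CPM with piericidin, 32.4, 35.3 and 27.3 CPM with 3-NPA, 29.3, 41.3 and 35.6 CPM with antimycin A, and 16.8, 24.9 and 29.9 CPM untreated. None was called against Untreated (-0.50 ± 0.26, 0.40 ± 0.25 and 0.57 ± 0.25, adjusted p = 0.228, 0.435 and 0.116). All 3 piericidin libraries lay below all 6 libraries with the other inhibitors. The difference was 1.07 ± 0.25 for antimycin A over piericidin (adjusted p = 0.0273, with 0.736% of genes called in that comparison) and -0.90 ± 0.26 for piericidin over 3-NPA (adjusted p = 0.0338, with 4.29% of genes called), while antimycin A over 3-NPA was 0.17 ± 0.24 (adjusted p = 0.800). Each of these calls was lost in 4 of the 6 fits without 1 library, with an adjusted p of up to 0.186 for antimycin A over piericidin and 0.137 for piericidin over 3-NPA. Gm16712, a gene annotated on the opposite strand across Ebi3, was also lowest on average with piericidin among the groups in culture. It averaged 11.2 ± 0.339 CPM with piericidin, 15.7 ± 4.40 CPM with 3-NPA, 18.0 ± 4.24 CPM with antimycin A and 16.4 ± 6.44 CPM untreated (SD, n = 3 each). In the mouse groups it averaged 1.08 to 1.88 CPM. The part of Gm16712 reads in the differences of Ebi3 was not tested. The strand setting of the counting is not given in the sources used here, so reads of the 2 genes cannot be told apart where they overlap.

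Transcripts of Il12a, the partner chain of IL-35, were near or at 0: counts ran from 0 to 7 per library in the mouse groups and were 0 in all 12 cultured libraries, which allows up to 0.854 to 1.11 CPM per library. Il10ra, the ligand-binding chain of the IL-10 receptor, was lower in RISP_Chimera_KO at 38.8 ± 4.76 CPM against 77.6 ± 7.96 CPM in RISP_Chimera_WT (SD, n = 4 each; -1.0 ± 0.10, adjusted p = 9.58e-04). In RISP_KO (-0.35 ± 0.11, adjusted p = 0.0713) and with each inhibitor it was not called. Of 22 listed chains, receptors and regulators of IL-10 and IL-35, 20 were tested in each comparison: 5 rose and 3 fell in RISP_KO, 0 and 6 in RISP_Chimera_KO, 4 and 0 with piericidin, 1 and 1 with 3-NPA, and antimycin A raised 5 and lowered 0. Of all tested genes 9.86%, 0.708%, 13.6%, 3.23% and 15.0% were called in these comparisons, in the same order. Their median log2 fold changes were -0.13, -0.23, 0.12, -0.01 and 0.11. Maf, a transcription factor that promotes Il10 expression in T cells, was called in 4 of the 5. It was at 20.4 ± 2.30 CPM in RISP_KO against 59.3 ± 18.8 CPM in RISP_WT (-1.54 ± 0.20, adjusted p = 0.00110), and at 41.8 ± 18.7 CPM in RISP_Chimera_KO against 140 ± 19.4 CPM in RISP_Chimera_WT (-1.75 ± 0.24, adjusted p = 0.00662). In culture Maf rose by 0.35 ± 0.10 with piericidin (adjusted p = 0.0170) and 0.44 ± 0.10 with antimycin A (adjusted p = 0.00195). Il12rb2, a signalling chain for IL-12 and IL-35, rose by 3.90 ± 0.56 in RISP_KO (adjusted p = 0.00172). In RISP_Chimera_KO the largest log2 fold change among all tested genes of this list was 0.43, and 0 were called higher.

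**Figure D3:**
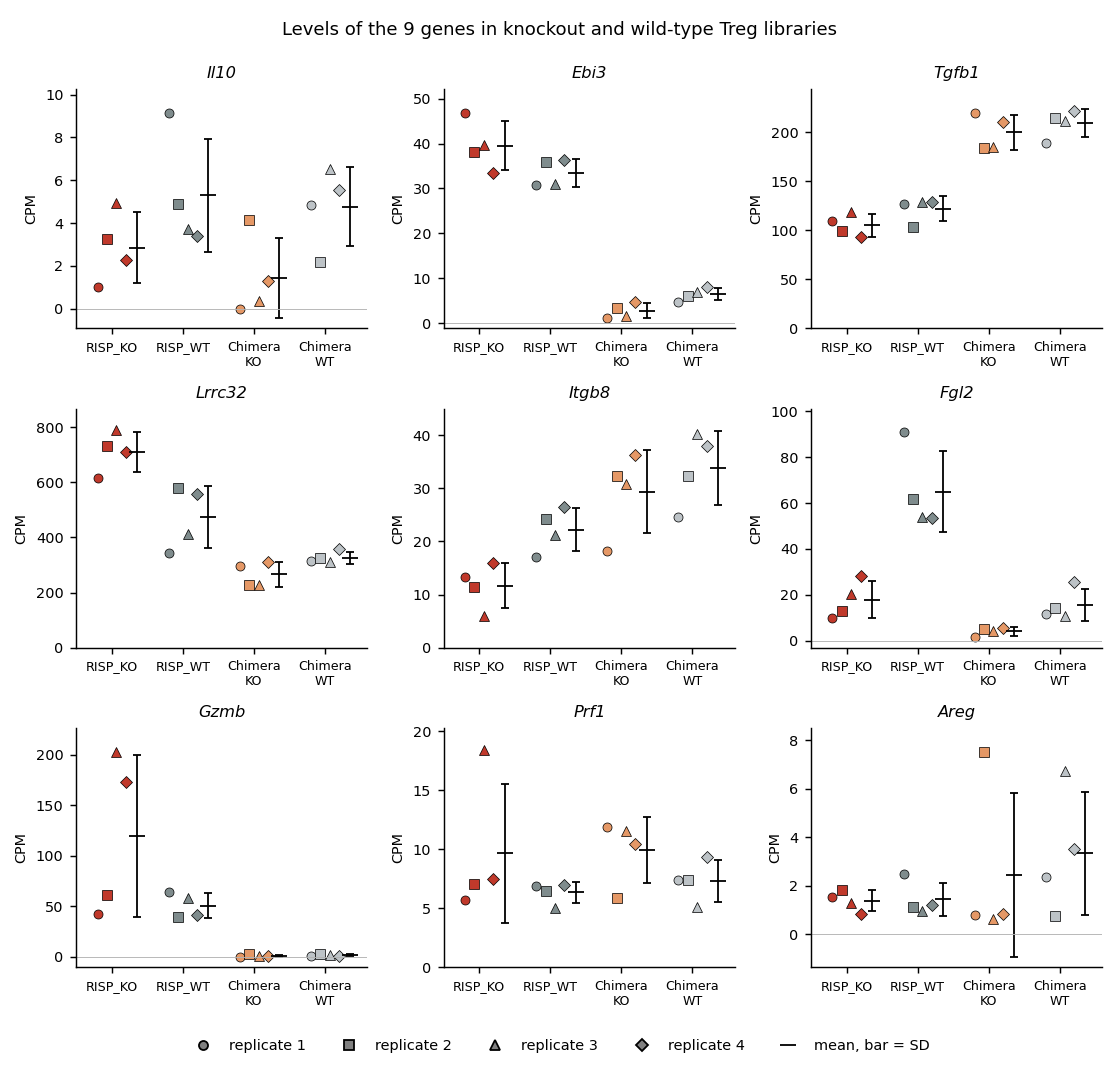
CPM of the 9 genes in each knockout and wild-type library (1 marker per library, its shape the replicate number; bar and whisker, mean and SD, n = 4). Fgl2 is below all wild-type libraries in both knockouts, Lrrc32 is above them in RISP_KO and below them in RISP_Chimera_KO, and the spread of Gzmb in RISP_KO runs from 42.2 to 203 CPM.

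Among the TGF-beta genes, calls fell on Lrrc32 and Itgb8, and Tgfb1 was called in no comparison. Tgfb1 (chromosome 7, 25687002 to 25705077, plus strand, mm10) read 109, 99.0, 119 and 92.8 CPM in RISP_KO, against 127, 103, 129 and 129 CPM in RISP_WT (-0.22 ± 0.10, adjusted p = 0.225). RISP_Chimera_KO libraries read 220, 184, 185 and 210 CPM, against 189, 215, 211 and 222 CPM in RISP_Chimera_WT (-0.07 ± 0.08, adjusted p = 0.777). With piericidin it read 353, 327 and 321 CPM, with 3-NPA 323, 318 and 296 CPM, with antimycin A 300, 312 and 286 CPM, and untreated 374, 309 and 345 CPM. The log2 fold changes were -0.04 ± 0.09, -0.13 ± 0.09 and -0.19 ± 0.09 (adjusted p = 0.848, 0.480 and 0.155). Tgfb1 was below its control on average in all 5 comparisons and was called in none, and within a group the ratio of its highest to its lowest library was 1.09 to 1.28.

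Lrrc32 (chromosome 7, 98494222 to 98501831, plus strand, mm10), which encodes the docking protein GARP, rose in RISP_KO. It read 615, 730, 790 and 709 CPM in RISP_KO, against 345, 578, 413 and 558 CPM in RISP_WT. All RISP_KO libraries lie above all RISP_WT libraries, which themselves spread 1.67-fold. The rise was 1.5-fold (0.59 ± 0.16, adjusted p = 0.0378), and it was not called without RISP_KO library 2, 3 or 4 or RISP_WT library 1 or 3 (adjusted p up to 0.118, log2 fold changes from 0.47 to 0.59). In chimeras the groups also did not overlap, but with the knockout lower: 298, 229, 227 and 310 CPM in RISP_Chimera_KO, against 315, 324, 310 and 357 CPM in RISP_Chimera_WT (-0.30 ± 0.10, adjusted p = 0.255). The highest knockout and the lowest wild-type library both round to 310 CPM. The knockout effect in chimeras minus that in 3-week-old mice was -0.90 ± 0.21 (adjusted p = 0.0210), and was not called without RISP_WT library 3 (adjusted p = 0.0558), without RISP_Chimera_KO library 3 (0.0510) or without RISP_Chimera_KO libraries 2 and 4 together (0.0579).

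Lrrc32 was called with none of the inhibitors. It read 702, 717 and 786 CPM with piericidin, 593, 657 and 633 CPM with 3-NPA, 717, 693 and 792 CPM with antimycin A, and 684, 754 and 684 CPM untreated. The log2 fold changes of 0.06 ± 0.08, -0.17 ± 0.08 and 0.05 ± 0.08 had adjusted p = 0.725, 0.274 and 0.730 (edgeR). The 3-NPA libraries were below all 9 others.

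Itgb8 (chromosome 12, 119158022 to 119238802, minus strand, mm10), the beta chain of the integrin that frees active TGF-beta, had the opposite direction in the mice and in culture. It read 13.3, 11.5, 5.90 and 15.9 CPM in RISP_KO, against 17.0, 24.2, 21.2 and 26.4 CPM in RISP_WT. Every RISP_KO library was below every RISP_WT library, and the log2 fold change of -0.93 ± 0.27 just missed the threshold (adjusted p = 0.0520). It passed with DESeq2 (adjusted p = 0.00706), with no filter on low counts (0.0298) and with a filter of 1 CPM (0.0457), and without RISP_KO library 4 (0.0288). RISP_Chimera_KO libraries read 18.2, 32.3, 30.8 and 36.2 CPM, against 24.6, 32.3, 40.2 and 37.9 CPM in RISP_Chimera_WT, overlapping widely (-0.20 ± 0.19, adjusted p = 0.717). The difference between the 2 knockout effects, 0.70 ± 0.36, was not called (adjusted p = 0.332).

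In culture Itgb8 read 188, 164 and 146 CPM with piericidin, 92.1, 102 and 129 CPM with 3-NPA, 121, 118 and 167 CPM with antimycin A, and 88.4, 91.9 and 84.6 CPM untreated. All libraries of the 3 inhibitors were above all untreated ones, by the least margin with 3-NPA. Itgb8 rose 1.88-fold with piericidin (0.91 ± 0.14, adjusted p = 9.89e-06) and 1.53-fold with antimycin A (0.62 ± 0.14, adjusted p = 0.00131), and both calls held in every fit without 1 library. With 3-NPA the log2 fold change was 0.29 ± 0.14 (adjusted p = 0.292). Piericidin over 3-NPA was itself called at 0.62 ± 0.14 (adjusted p = 0.00442, lost only without 3-NPA library 1 at 0.0646), antimycin A over piericidin was -0.29 ± 0.13 (adjusted p = 0.427) and antimycin A over 3-NPA 0.33 ± 0.14 (adjusted p = 0.188).

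**Figure D4:**
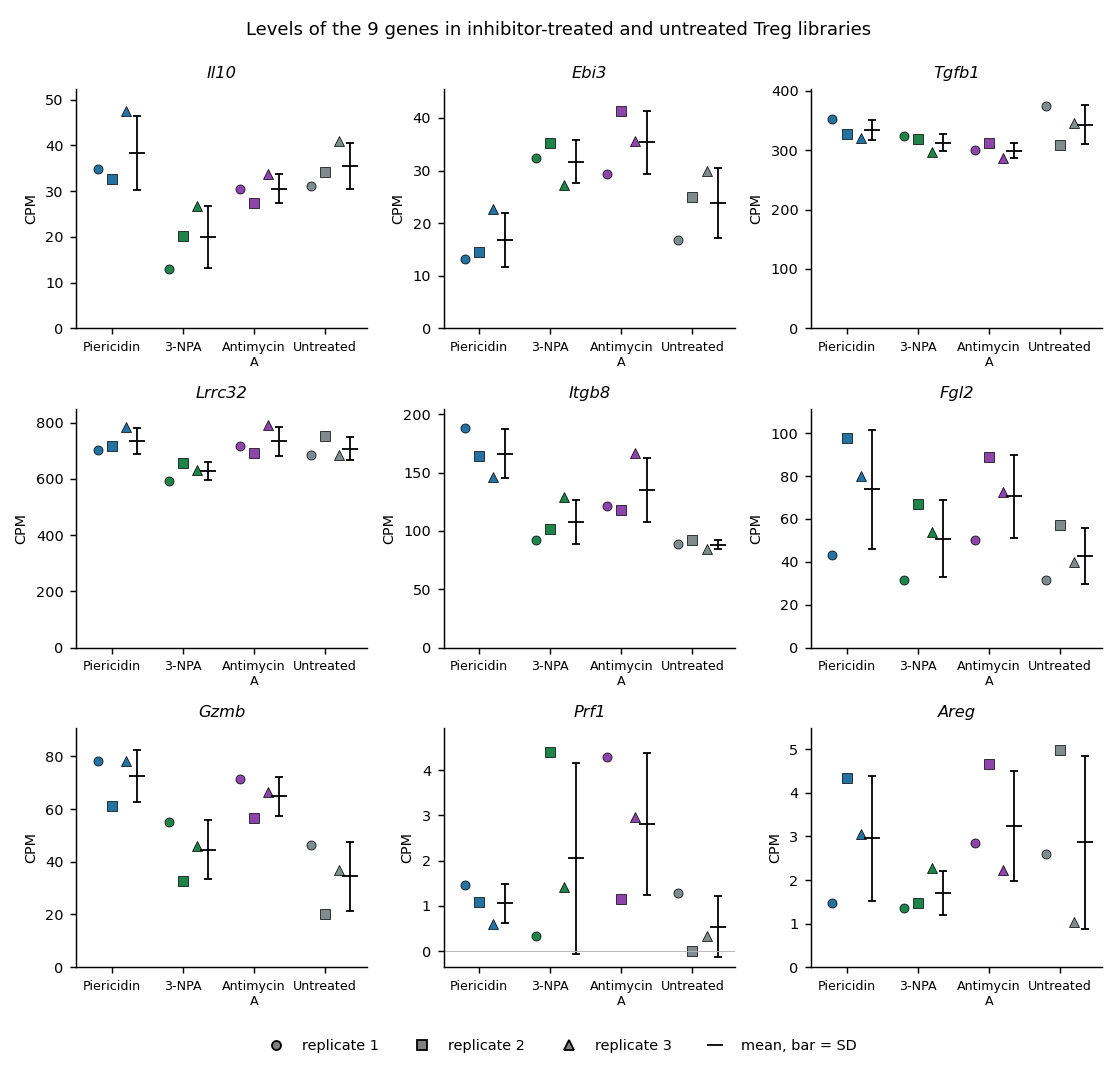
CPM of the 9 genes in each library in culture (1 marker per library, its shape the replicate number; bar and whisker, mean and SD, n = 3). Itgb8 and Gzmb lie above all untreated libraries with piericidin and antimycin A, Il10 lies below them with 3-NPA, and replicate 1 is lowest for Fgl2 and replicate 2 for Gzmb in all 4 groups.

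Other members of the TGF-beta pathway were called in all 5 comparisons with a control. Of 28 listed genes, 24 were tested in each mouse comparison and 19 in culture. In RISP_KO 1 rose and 1 fell, in RISP_Chimera_KO 0 and 1, while piericidin raised 4 and lowered 1, 3-NPA 2 and 1, and antimycin A 3 and 1, with median log2 fold changes of 0.06, 0.02, 0.14, 0.09 and 0.20. Over all tested genes the shares called were the 9.86%, 0.708%, 13.6%, 3.23% and 15.0% given above. Itgav, the alpha chain that pairs with the product of Itgb8, rose with piericidin to 244 ± 9.44 CPM, against 163 ± 24.3 CPM untreated (SD, n = 3 each; 0.58 ± 0.11, adjusted p = 2.68e-04). It was not called with 3-NPA (0.16 ± 0.11, adjusted p = 0.505), with antimycin A (0.25 ± 0.11, adjusted p = 0.132) or in the mice, at -0.59 ± 0.19 in RISP_KO (adjusted p = 0.0815) and -0.06 ± 0.09 in RISP_Chimera_KO (adjusted p = 0.834). Itgb3, which encodes another partner of the alpha-v chain, rose with all 3 inhibitors, to 60.1 ± 10.4 CPM with piericidin, 54.0 ± 4.54 CPM with 3-NPA and 80.7 ± 7.36 CPM with antimycin A, against 29.5 ± 2.72 CPM untreated (1.03, 0.88 and 1.45 on the log2 scale, adjusted p = 5.67e-05, 0.00271 and 5.82e-08). Itgb1, another beta integrin, fell by 1.25 ± 0.18 in RISP_KO (adjusted p = 0.00171) and by 0.64 ± 0.10 in RISP_Chimera_KO (adjusted p = 0.0107). The receptor genes moved apart in culture: Tgfbr1 fell by 0.41 ± 0.10 with 3-NPA (adjusted p = 0.0187) and by 0.49 ± 0.10 with antimycin A (adjusted p = 6.93e-04), while Tgfbr2 rose by 0.37 ± 0.10 with piericidin (adjusted p = 0.00750) and by 0.44 ± 0.10 with antimycin A (adjusted p = 0.00120). Pmepa1, a target and feedback inhibitor of TGF-beta signalling, rose by 0.85 ± 0.20 in RISP_KO (adjusted p = 0.0245). Elsewhere its direction varied: it averaged 34.9 ± 4.79 CPM in RISP_Chimera_KO against 40.8 ± 1.85 CPM in RISP_Chimera_WT (SD, n = 4 each). In culture it averaged 105 ± 0.833 CPM untreated and 78.1 ± 6.93 CPM with piericidin (SD, n = 3 each). With 3-NPA it was at 125 ± 5.13 CPM and with antimycin A at 95.6 ± 2.68 CPM.

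Fgl2 (chromosome 5, 21372642 to 21378374, plus strand, mm10) was the only one of the 9 called in both knockouts, and it was lower in each. It read 9.98, 13.2, 20.6 and 28.1 CPM in RISP_KO, against 90.8, 61.6, 53.9 and 53.3 CPM in RISP_WT. The highest RISP_KO library was well below the lowest RISP_WT library. Fgl2 was 3.61-fold lower (-1.85 ± 0.30, adjusted p = 0.00351), and the call held in all 8 fits without 1 library (adjusted p from 0.00138 to 0.0127). In chimeras it read 1.46, 5.30, 4.17 and 5.78 CPM in RISP_Chimera_KO, against 11.5, 14.3, 11 and 25.8 CPM in RISP_Chimera_WT. The groups again did not overlap, at a 3.75-fold lower level in the knockout (-1.91 ± 0.37, adjusted p = 0.0384). That call was lost without RISP_Chimera_KO library 3 or any 1 of the 4 RISP_Chimera_WT libraries (adjusted p up to 0.123), with log2 fold changes from -2.05 to -1.55. The difference between the 2 knockout effects was -0.08 ± 0.51 (adjusted p = 0.968), an SE that leaves room for a sizeable difference either way.

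Macrophages also express Fgl2, and their markers moved with it in 3-week-old mice. The sum of 9 macrophage and monocyte markers was 4.19 to 9.18 CPM in RISP_KO and 8.19 to 39.1 CPM in RISP_WT. All 7 tested markers had a log2 fold change below 0 (median -2.24) and an unadjusted p under 0.05 (edgeR). Of these, 3 were called lower in RISP_KO. Adgre1 (-3.66 ± 0.76, adjusted p = 0.0131), Csf1r (-2.99 ± 0.67, adjusted p = 0.0177) and C1qb (-2.24 ± 0.47, adjusted p = 0.0128) were the called markers, and Fcgr1 was at 0 in RISP_KO. The RISP_WT library with the highest Fgl2, at 90.8 CPM, had the lowest marker sum of its group, at 8.19 CPM, and RISP_KO library 3 had a sum of 9.18 CPM with Fgl2 at 20.6 CPM. In chimeras the marker sum was 25.7 to 78.7 CPM in RISP_Chimera_KO and 21.7 to 53.5 CPM in RISP_Chimera_WT, none of the 7 tested markers was called (edgeR, 1 at an unadjusted p under 0.05), and Fgl2 was lower in the knockout. Other lists moved too. B cell markers summed to 21.2 to 28.1 CPM in RISP_KO and 42.9 to 55.1 CPM in RISP_WT. All 4 tested B cell markers were lower at an unadjusted p under 0.05 (edgeR), and 1 of them was called. Of 3 tested dendritic cell markers, 2 were lower at an unadjusted p under 0.05, and 1 was called. An unadjusted p under 0.05 was common among all genes in RISP_KO against RISP_WT. Gzmb, at an unadjusted p of 0.0154 (edgeR), ranked 2174 of 13832 genes there, and Tgfb1, at 0.0633, ranked 3887. Endothelial, stromal and epithelial markers summed to 15.4 to 24.6 CPM in RISP_KO and 31.3 to 43.8 CPM in RISP_WT, and to 2.19 to 4.68 CPM in RISP_Chimera_KO and 6.39 to 9.53 CPM in RISP_Chimera_WT. In both sets Epcam was called lower (-0.87 ± 0.18, adjusted p = 0.0121, and -1.32 ± 0.24, adjusted p = 0.0264). The part of these markers in the level of Fgl2 was not tested.

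**Figure D5:**
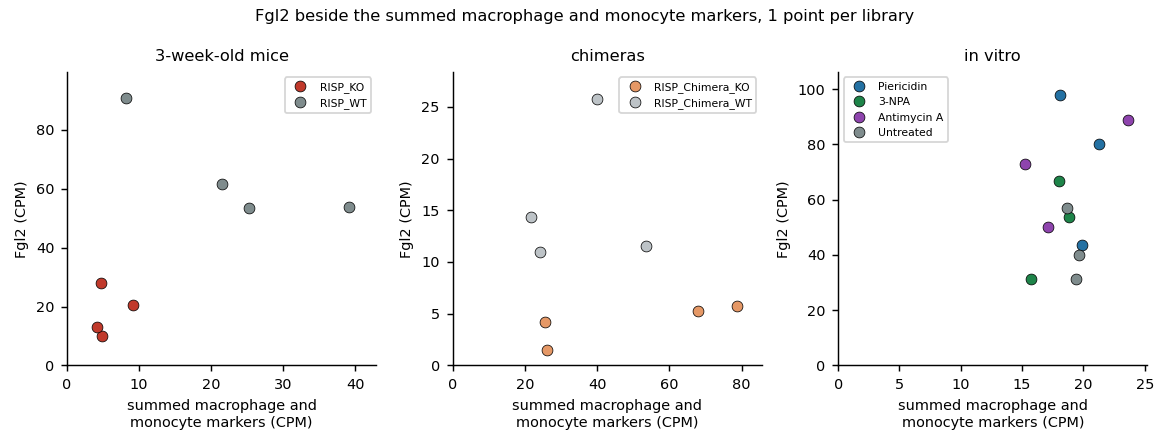
Fgl2 in CPM against the summed CPM of 9 macrophage and monocyte markers, 1 point per library, with a panel for each count table. In chimeras all knockout points lie below all wild-type points, at marker sums of 25.7 to 78.7 CPM against 21.7 to 53.5 CPM, and in 3-week-old mice 1 RISP_WT library has a marker sum within the RISP_KO range and the highest Fgl2.

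In culture Fgl2 went the other way. It read 43.4, 97.8 and 80.2 CPM with piericidin, 31.4, 66.9 and 53.8 CPM with 3-NPA, 50.0, 88.8 and 72.7 CPM with antimycin A, and 31.4, 57.1 and 39.9 CPM untreated. Replicate 1 was lowest and replicate 2 highest in all 4 groups, and treated and untreated libraries overlap. Within each replicate number, piericidin and antimycin A read higher than untreated, though same-numbered libraries were not taken as pairs. Fgl2 rose 1.72-fold with piericidin (0.78 ± 0.24, adjusted p = 0.0236) and 1.65-fold with antimycin A (0.72 ± 0.24, adjusted p = 0.0358), and with 3-NPA the log2 fold change was 0.24 ± 0.24 (adjusted p = 0.688). DESeq2 called neither rise (adjusted p = 0.185 and 0.224), and each was lost in 4 of the 6 fits without 1 library, with an adjusted p of up to 0.227 for piericidin (without piericidin library 2) and 0.265 for antimycin A (without antimycin A library 2). A fit with a replicate block kept both calls. The sum of the 9 macrophage and monocyte markers was 18.1 to 21.3 CPM with piericidin, 15.7 to 18.8 CPM with 3-NPA, 15.2 to 23.6 CPM with antimycin A and 18.7 to 19.6 CPM untreated. Most of it was Csf1r, at group means of 13.7 to 15.4 CPM, while Fcgr1 and C1qb were at 0 in all 12 libraries, and neither of the 2 markers tested, Csf1r and Cd68, was called with any inhibitor (edgeR, 0 at an unadjusted p under 0.05). Fgl2 lies within Ccdc146, a gene of the opposite strand that averaged 0.164 to 1.46 CPM per group. Of 4 genes listed beside Fgl2 (Fgl1, Fcgr2b, Fcgr3 and Tigit), 2 were tested in RISP_KO (0 rose, 1 fell), 3 in RISP_Chimera_KO (0 and 0) and 1 in culture. The gene that fell in RISP_KO and the one tested in culture were both Tigit. Tigit, an inhibitory receptor of Treg cells that can induce Fgl2, fell by 1.52 ± 0.17 in RISP_KO (adjusted p = 4.38e-04), and rose by 0.59 ± 0.12 with 3-NPA (adjusted p = 0.00436) and 0.62 ± 0.12 with antimycin A (adjusted p = 3.73e-04). With piericidin, where Fgl2 was called, Tigit was not (log2 fold change 0.28). Nor was Tigit called in chimeras, at 8.13 ± 4.98 CPM in RISP_Chimera_KO against 16.4 ± 6.38 CPM in RISP_Chimera_WT (SD, n = 4 each).

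Of the 3 genes that rose with piericidin and antimycin A, Fgl2 and Gzmb hold an AP-1 motif upstream of their RefSeq start, and Itgb8 holds none of the motifs searched in its window. The sequences with the motif are shown, from RefSeq on GRCm38.p6, with the AP-1 motif (TGANTCA) and, in Gzmb, the RUNX motif (TGTGGT) in capitals.

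Gzmb chr14:56262335-56262584, minus strand, the 250 bases before the RefSeq start: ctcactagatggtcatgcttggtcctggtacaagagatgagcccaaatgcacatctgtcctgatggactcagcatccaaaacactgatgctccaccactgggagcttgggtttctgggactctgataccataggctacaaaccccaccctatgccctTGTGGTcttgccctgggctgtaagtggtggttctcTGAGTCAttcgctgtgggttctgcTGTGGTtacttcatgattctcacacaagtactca

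Fgl2 chr5:21372643-21372672, plus strand, the last 30 bases before the RefSeq start: gaactcagaacgccTGAGTCAggcggcggt

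The mm10 gene coordinates of Fgl2 given above begin before its RefSeq start, so the stretch of Fgl2 shown lies inside the gene by those coordinates. Gzmb, on the minus strand, begins at 56262260 by its mm10 coordinates and at 56262334 in RefSeq. Its motifs therefore lie further upstream by the mm10 coordinates. The AP-1 motif begins 58 bases upstream of the Gzmb start and 16 bases upstream of the Fgl2 start in RefSeq, and the RUNX motifs of Gzmb begin 93 and 34 bases upstream. Both strands of the 250 bases before the start were searched, in which an AP-1 motif occurs in 6.75% and a RUNX motif in 14% of 32851 RefSeq windows. The letters of a cyclic AMP response element (TGACGTCA, 1.55% of windows) occur once, in Areg, 61 bases upstream, and Areg also holds TATAAA (12.4% of windows) 31 bases upstream. An NFAT motif (GGAAAA, 20.4% of windows) was in no window searched, and Prf1 holds a RUNX motif on the opposite strand, 130 bases upstream. Windows for Il10 and Lrrc32 were not used here. A match is a run of letters and not a measured site.

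Gzmb (chromosome 14, 56258856 to 56262260, minus strand, mm10), the gene of the serine protease granzyme B, rose with 2 of the inhibitors. It read 78.4, 61.2 and 78.4 CPM with piericidin, 55.2, 32.7 and 45.8 CPM with 3-NPA, 71.5, 56.8 and 66.4 CPM with antimycin A, and 46.3, 20.2 and 36.8 CPM untreated. Replicate 2 was lowest in all 4 groups, and all piericidin and antimycin A libraries were above all untreated ones. The rise was 2.12-fold with piericidin (1.09 ± 0.21, adjusted p = 3.24e-04) and 1.89-fold with antimycin A (0.92 ± 0.21, adjusted p = 0.00175), and both calls held in every fit without 1 library. With 3-NPA the log2 fold change was 0.38 ± 0.22 (adjusted p = 0.383). Piericidin over 3-NPA was called at 0.70 ± 0.21 (adjusted p = 0.0412), which 4 of 6 fits without 1 library lost (adjusted p up to 0.225), antimycin A over 3-NPA was 0.53 ± 0.21 (adjusted p = 0.149) and antimycin A over piericidin -0.17 ± 0.20 (adjusted p = 0.851). The sum of 6 CD8 T and NK cell markers was 8.33 to 15.8 CPM with piericidin, 5.52 to 18.8 CPM with 3-NPA, 13.4 to 21.1 CPM with antimycin A and 11.3 to 13.4 CPM untreated, with Ncr1 and Klrb1c at 0 in all 12 libraries. Cd8b1, the one tested, averaged 11.8, 10.2 and 16.2 CPM with the 3 inhibitors, against 11.2 CPM untreated, and was not called (edgeR, 0 of 3 comparisons at an unadjusted p under 0.05). The part of these markers in the rise of Gzmb was not tested.

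In the mice Gzmb varied widely between libraries. It read 42.2, 61.1, 203 and 173 CPM in RISP_KO, against 64.0, 39.5, 58.1 and 41.7 CPM in RISP_WT. RISP_KO libraries 3 and 4 lie far above all RISP_WT libraries, and RISP_KO libraries 1 and 2 lie within their range (1.24 ± 0.43, adjusted p = 0.0980; 0.0185 without RISP_KO library 1). Chimeras held little of it, at 0.0995, 2.37, 0.937 and 0.807 CPM in RISP_Chimera_KO, against 0.878, 2.84, 2.17 and 1.13 CPM in RISP_Chimera_WT (-0.75 ± 0.67, adjusted p = 0.691). The difference between the knockout effects, -2.07 ± 0.80, was not called (adjusted p = 0.187).

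Prf1 (chromosome 10, 61297836 to 61304263, plus strand, mm10), the gene of the pore-forming protein perforin, was not called in either knockout. It read 5.68, 7.0, 18.4 and 7.46 CPM in RISP_KO, against 6.87, 6.46, 4.99 and 6.98 CPM in RISP_WT (0.61 ± 0.34, adjusted p = 0.293). RISP_KO library 3 stands apart from the other 7, and it also has the highest Gzmb and the highest sum of 6 CD8 T and NK cell markers, 50.4 CPM, where the other RISP_KO libraries had 35.0, 39.8 and 36.7 CPM and RISP_WT libraries 22.5 to 29.6 CPM. Among these markers Eomes rose by 3.06 ± 0.40 in RISP_KO (adjusted p = 0.00107), the other 4 tested were not called, and Ncr1 was at 0 in RISP_KO. The same library had the highest sum of 5 erythroid and platelet markers, 170 CPM, where the other RISP_KO libraries had 2.32, 5.52 and 15.3 CPM and RISP_WT libraries 1.08 to 64.1 CPM. The part of these markers in the levels of Gzmb and Prf1 was not tested. RISP_Chimera_KO libraries read 11.9, 5.83, 11.5 and 10.4 CPM of Prf1, against 7.37, 7.41, 5.07 and 9.34 CPM in RISP_Chimera_WT (0.44 ± 0.24, adjusted p = 0.471). In culture 0 to 12 counts per library were seen. Fitted without the filter, the log2 fold changes were 0.90 ± 1.25 with piericidin, 1.84 ± 1.22 with 3-NPA and 2.28 ± 1.21 with antimycin A (adjusted p = 0.809, 0.680 and 0.356, edgeR). None was called, and SEs of this size leave room for large changes.

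Of 22 listed granule and death-ligand genes, 18 were tested in each mouse comparison and 15 in culture. In RISP_KO 4 rose and 2 fell, in RISP_Chimera_KO 0 and 1, while piericidin raised 2 and lowered 1, 3-NPA 2 and 0, and antimycin A 2 and 0, with median log2 fold changes of 0.06, -0.04, -0.03, 0.04 and -0.06, beside 9.86%, 0.708%, 13.6%, 3.23% and 15.0% of all tested genes called. Gzma, the gene of granzyme A, was at 34.4 ± 12.3 CPM in RISP_KO against 1.13 ± 0.679 CPM in RISP_WT (SD, n = 4 each; 4.90 ± 0.42, adjusted p = 1.26e-04). Unlike Gzmb, its lowest RISP_KO library, at 22.1 CPM, was far above its highest RISP_WT library, at 2.05 CPM. In chimeras Gzma was near 0 in both groups, at 0.736 ± 0.547 CPM in RISP_Chimera_KO and 0.232 ± 0.239 CPM in RISP_Chimera_WT (SD, n = 4 each), with overlapping libraries. Its counts in culture ran from 0 to 2 per library. Srgn, the proteoglycan core on which granzymes are stored, rose with all 3 inhibitors, to 621 ± 12.3 CPM with piericidin, 504 ± 19.0 CPM with 3-NPA and 642 ± 54.2 CPM with antimycin A, against 414 ± 31.3 CPM untreated (0.59, 0.28 and 0.63 on the log2 scale, adjusted p = 3.81e-06, 0.0491 and 4.15e-07). Cst7, an inhibitor of the proteases that activate granzymes, rose by 1.19 ± 0.18 in RISP_KO (adjusted p = 0.00266) and fell by 0.63 ± 0.12 in RISP_Chimera_KO (adjusted p = 0.0352).

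Areg (chromosome 5, 91139615 to 91148432, plus strand, mm10) was low in all groups and called in none. It read 1.54, 1.83, 1.29 and 0.810 CPM in RISP_KO, against 2.46, 1.11, 0.937 and 1.19 CPM in RISP_WT (-0.06 ± 0.37, adjusted p = 0.940). RISP_Chimera_KO libraries read 0.796, 7.52, 0.625 and 0.839 CPM, against 2.34, 0.744, 6.71 and 3.50 CPM in RISP_Chimera_WT (-0.46 ± 0.78, adjusted p = 0.856). In each chimera group 1 library exceeds the others, library 2 in RISP_Chimera_KO and library 3 in RISP_Chimera_WT. In culture it read 1.47, 4.35 and 3.05 CPM with piericidin, 1.36, 1.47 and 2.28 CPM with 3-NPA, 2.86, 4.66 and 2.22 CPM with antimycin A, and 2.59, 4.98 and 1.03 CPM untreated, from 3 to 17 counts per library. The SEs of 0.74 to 0.79 on the log2 scale mean that only large changes could have been seen there.

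Of 16 listed genes of the amphiregulin and EGF axis with tissue-repair receptors, 13 were tested in RISP_KO, 12 in RISP_Chimera_KO and 9 in culture. In RISP_KO 2 rose and 4 fell, in RISP_Chimera_KO 0 and 1, while piericidin raised 1 and lowered 0, 3-NPA 0 and 0, and antimycin A 3 and 0, beside 9.86%, 0.708%, 13.6%, 3.23% and 15.0% of all tested genes called. Egfr, which encodes the amphiregulin receptor, was at 1.70 ± 0.832 CPM in RISP_KO against 0.224 ± 0.180 CPM in RISP_WT (SD, n = 4 each; 2.91 ± 0.54, adjusted p = 0.00738), a low level in both. Pparg, a transcription factor of tissue Treg cells, fell by 3.10 ± 0.37 in RISP_KO (adjusted p = 6.51e-04), and Il18r1, a receptor chain for IL-18, fell by 1.0 ± 0.11 in RISP_Chimera_KO (adjusted p = 0.00165). Il1rap, the shared chain of the IL-1 and IL-33 receptors, rose by 1.06 ± 0.28 with piericidin (adjusted p = 0.00790) and 1.14 ± 0.28 with antimycin A (adjusted p = 0.00339). Il1rl1, the IL-33 receptor that marks tissue-repair Treg cells, was at 26.1 CPM in RISP_KO against 63.0 CPM in RISP_WT and at 3.95 CPM in RISP_Chimera_KO against 13.6 CPM in RISP_Chimera_WT, and neither difference was called (-1.27 ± 0.43 and -1.79 ± 0.40, adjusted p = 0.0902 and 0.0679).

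Set against each other at the single dose of each, the 3 inhibitors gave 3 comparisons over the 8 tested genes, with p-values adjusted over all 11689 genes in each comparison. Antimycin A and piericidin differed in Ebi3 alone. For piericidin and 3-NPA, 4 genes differed: Il10 (0.94 ± 0.24, adjusted p = 0.0170), Itgb8 and Gzmb were higher with piericidin and Ebi3 lower, and Il10 lost its call without 3-NPA library 1 (adjusted p = 0.148) or piericidin library 3 (0.146). Between antimycin A and 3-NPA 0 genes were called by edgeR, against 3.98% of all genes. An unadjusted p under 0.05 (edgeR) was reached by 5 of the 8. The largest of these, 0.0497 for Fgl2, ranked 1942 of 11689 genes, so many other genes passed that limit too. DESeq2 called 1 of the 8, Lrrc32 (0.22, adjusted p = 0.0416), and it also called Lrrc32 for piericidin over 3-NPA (0.23, adjusted p = 0.0334). The doses differ and are matched to no common readout, so these differences are between the treatments as given.

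Over all 28 libraries most pairs of the 9 genes varied apart. With log2 CPM standardised within each count table, the highest Pearson r between 2 of the 9 were 0.60 for Itgb8 and Fgl2 and 0.59 for Il10 and Fgl2, and r was 0.20 for Fgl2 and Gzmb. Among 7830 other genes with sufficient counts, the closest to Fgl2 were Wls (r = 0.88) and Pdcd1 (0.87), to Il10 Inpp5k (0.78) and Myo1f (0.70), to Ebi3 Sdf4 and Relb (both 0.78), and to Tgfb1 Glyr1 (0.74) and Arhgef2 (0.71). Lrrc32 was closest to Cish (0.77) and Arid4b (0.69), Itgb8 to Ldlrad4 (0.77) and Ipcef1 (0.76), Gzmb to Arl5a and Mta3 (both 0.74), Prf1 to Arhgap15 (0.73) and Ncstn (0.71), and Areg to Ddx5 (0.74) and Sh2b1 (0.71). Each table holds groups that differ in genotype or treatment, and standardising within a table leaves those differences in. Libraries of a table also share a kit and a range of depth, so the values are descriptions.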

How the data were processed

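The deposited tables hold raw counts, 1 per Ensembl gene and library. Per the submitters' processing notes, the authors' tools were bcl2fastq, TopHat on mm10, HTSeq and edgeR, and the strand setting is not given in the sources used here. Of 43430 gene IDs, 42462 have a symbol. A table with 11 columns that match no label was not used.

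Tests used R 4.3.3 and edgeR 4.0.16: low genes were dropped with filterByExpr, TMM set the scaling and glmQLFTest gave the p-values, with calls at a p under 0.05 after Benjamini-Hochberg adjustment. Both mouse comparisons were fitted within their table, the 12 cultured libraries together, and the difference of knockout effects over 16 libraries jointly, giving 9 comparisons. The script was tested on simulated data. The prior count of log2 fold changes was 0.125, and an SE is the log2 fold change over the square root of F. The coefficient of variation between libraries was 21.6% in the table of 3-week-old mice, 20.5% for chimeras and 14.7% for cultures. No pair of libraries was a duplicate.

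The 9 genes and all lists were chosen with earlier results of these data known. Beside the 9, up to 3 called genes of smallest p per list and comparison could be named, with Il12a, Il10ra, Tgfbr1, Tgfbr2, Itgav, Egfr and Il1rl1 as direct partners. Alternatives were DESeq2 1.42.0, RLE factors, other filters, a replicate block and leaving out libraries.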

Additional observations from a re-analysis of the deposited data

Results flagged for a closer look

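The knockout effect differed between chimeras and 3-week-old mice for 2 of the 9 genes, by a test of the difference in 1 fit of 16 libraries. For Ebi3 the difference was -1.49 on the log2 scale, with values of -1.23 in chimeras and 0.24 in 3-week-old mice. For Lrrc32 it was -0.90, with -0.30 in chimeras and 0.59 in 3-week-old mice.

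Of 36 sets of 4 libraries examined, 1 per gene and mouse group, 4 held a library set apart from the rest of its group by a wide gap, and chance gives about 1 in 20. Areg was at 7.52 CPM in RISP_Chimera_KO replicate 2, and at 2.46 CPM in RISP_WT replicate 1. Prf1 was at 18.4 CPM in RISP_KO replicate 3. Tgfb1 was at 103 CPM in RISP_WT replicate 2, below the other 3.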

How the results depend on the processing

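Over 1011 values of single genes under an alternative, 910 kept direction and side of the threshold, 59 lost the call, 14 gained one and 28 changed sign, all 28 of them values that were not called. DESeq2 called 2148 genes in RISP_KO against RISP_WT in place of 1364, 436 in place of 102 in chimeras, and 672, 203, 788 and 820 for 3-NPA over Untreated, antimycin A over piericidin, antimycin A over 3-NPA and piericidin over 3-NPA, in place of 377, 86, 465 and 502, and 908 in place of 509 for the difference of knockout effects. It called 2 of the 9 genes in place of 1 in chimeras, and 1 in place of 0 for antimycin A over 3-NPA. With no filter 208 genes were called in chimeras, and without RISP_Chimera_KO libraries 2 and 4 it was 247, with 3 of the 9, Il10 and Ebi3 among them, whose highest knockout values these libraries hold. In the difference of knockout effects leaving out both gave 319 genes and 1 of the 9, and Prf1 turned to 0.08. With 3-NPA, 0 of 8 genes were called with RLE factors, with a filter of 1 CPM and in a fit of the 2 groups alone. Lrrc32 for antimycin A over piericidin was 0.00 with no filter.

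Same-numbered libraries were not taken as pairs: correlations of their deviations were -0.10 to 0.13. In culture libraries 1 and 2 correlated best with their own number in all 6 comparisons, weakly (0.03 to 0.09), and library 3 in 2 of 6. With the replicate block 895 genes were called in RISP_KO, 324 for the difference of knockout effects, and 1 of 8 for antimycin A over 3-NPA (Gzmb, 0.57, adjusted p = 0.0477). The block also called Itgb8 in RISP_KO (-0.99, adjusted p = 0.050) and Fgl2 for piericidin over 3-NPA (0.54, adjusted p = 0.0386), and it kept the calls of Fgl2 with piericidin (0.76, adjusted p = 7.48e-04) and antimycin A (0.72, adjusted p = 0.00114).

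Leaving out 1 library gave these ranges. In RISP_KO 787 to 1486 genes and 1 to 3 of the 9 were called, and in chimeras 33 to 177 and 0 to 1. With piericidin it was 1009 to 1421 genes, and with 3-NPA 130 to 295 and 0 to 1 of 8. Antimycin A over piericidin gave 43 to 75 and 0 to 1, antimycin A over 3-NPA 188 to 454 genes, piericidin over 3-NPA 230 to 409 and 1 to 3, and the difference of knockout effects 323 to 627 and 0 to 2. Sign changes came in Areg (-0.23 to 0.34 in RISP_KO, -2.14 to 0.15 in chimeras, -0.36 to 0.69 with piericidin, -0.22 to 0.83 with antimycin A, -0.22 to 0.51 for antimycin A over piericidin, -2.09 to 0.19 for the difference of knockout effects), in Il10 (-0.06 to 0.23) and Tgfb1 (-0.11 to 0.03) with piericidin, in Lrrc32 with antimycin A (-0.01 to 0.10) and over piericidin (-0.06 to 0.04), in Fgl2 for antimycin A over piericidin (-0.34 to 0.18) and the difference of knockout effects (-0.28 to 0.26), and in Prf1 for that difference (-0.36 to 0.35). The cause was not tested. Prf1 had 0 to 12 counts per library in culture and Areg 3 to 17. Whether depth set their SEs was not tested, and for Areg the SE was 0.78 in the deeper chimera libraries.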
